A study of Mus musculus with 14 samples.

Results

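The 10 genes described here, ND1, ND2, ND4, ND5, ND6, CYTB, COX1, COX2, COX3 and ATP6, are encoded by the mitochondrial genome and were read from RNA-seq counts of the superior mesenteric artery of 14 mice. They were chosen by symbol, and no measured value was used in the choice. They are 10 of the 13 protein genes of the mitochondrial genome and 10 of the 46095 gene symbols of the count table, and all 10 passed the filter on low counts, which kept 17693 symbols. ND3, ND4L and ATP8, the other protein genes of this genome, are given beside them where they bear on the result.

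All mice were 8-week-old C57BL/6 mice. Drp1 (gene Dnm1l) is the dynamin-related GTPase that divides mitochondria, and the study asked how it shapes the response of the vessel to ischemia. WT mice, Drp1 +/+ in the labels, gave 3 arteries under normal conditions and 3 after ischemia. The Drp1 KO mice, as the study calls them, gave 4 arteries under normal conditions and 4 after ischemia. The labels list these KO mice as Drp1 flox/+, while the study describes heterozygous carriers of a frameshift that CRISPR/Cas9 introduced in exon 2, so the mice keep at least 1 intact allele in either reading. Whether the flox allele of the labels had been deleted is not stated, and no Cre is named. Ischemia was made by bleeding through the femoral artery. The labels of the ischemic mice give 2 h, and the study's text gives a longer period. RNA was extracted from the isolated artery as a tissue. Fewer cells of a type and less RNA per cell thus cannot be told apart in any value below.

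The mitochondrial genome is a small circle that is transcribed from both of its strands as long precursors, which are cut at the transfer RNAs into single messengers. Its protein genes all encode core subunits of the respiratory chain and of ATP synthase, and their products are assembled with nuclear-encoded subunits in the inner membrane. Pieces of this genome have also been copied into nuclear chromosomes, where most no longer encode a protein. In the artery the wall is mainly smooth muscle, and the brown fat that can surround vessels is especially rich in mitochondria.

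The sequences are shown because some members have copies in the nuclear genome that short reads cannot be told from. For each of 3 members, 60 bases of the mitochondrial gene are set beside the matching bases of a pseudogene on chromosome 1, both read 5′ to 3′ in the sense of the gene from GENCODE M21 transcripts on GRCm38. Capitals mark bases that differ between gene and copy, and 0 bases differ for COX2 and ATP6.
COX2, chrM:7323-7382, plus strand: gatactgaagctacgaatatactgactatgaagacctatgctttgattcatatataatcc
Gm28661, chr1:24615196-24615255, minus strand: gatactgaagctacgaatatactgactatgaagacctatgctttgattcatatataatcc
ATP6, chrM:8236-8295, plus strand: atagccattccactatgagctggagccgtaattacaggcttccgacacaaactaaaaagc
Gm10925, chr1:24614283-24614342, minus strand: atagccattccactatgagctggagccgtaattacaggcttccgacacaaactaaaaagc
COX1, chrM:6381-6440, plus strand: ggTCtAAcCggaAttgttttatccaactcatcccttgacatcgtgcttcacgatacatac
Gm29216, chr1:24616138-24616197, minus strand: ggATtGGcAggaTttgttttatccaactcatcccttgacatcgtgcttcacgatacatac

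In the COX1 pair the 6 differing bases all lie near the start of the window, where the annotated pseudogene begins, and the rest of the 492 aligned bases is identical. The copies lie side by side on the minus strand of chromosome 1, each an unprocessed pseudogene in GENCODE M21. Gm28661 matches 681 of the 684 bases of COX2 (chrM:7013-7696), Gm10925 matches 678 of the 681 bases of ATP6 (chrM:7927-8607), and Gm28437 matches 783 of the 784 bases of COX3 (chrM:8607-9390), each with 0 mismatches. Gm28439 matches only the first 876 of the 1378 bases of ND4 (chrM:10167-11544), again with 0 mismatches. When each gene was cut into overlapping windows of 100 bases, 99.5% of the windows of COX2, 99.5% of those of ATP6 and 99.9% of those of COX3 also occurred in an annotated nuclear transcript. The share was 60.8% for ND4, 30.8% for COX1 (chrM:5328-6872) and 3.20% for ND2 (chrM:3914-4951). It was 0% for ND1 (chrM:2751-3707), ND5 (chrM:11742-13565), ND6 (chrM:13552-14070) and CYTB (chrM:14145-15288). With windows of 50 bases the share was 62.2% for ND4, 51.1% for COX1, 8.19% for ND2 and 7.61% for ND5. It was again 0% for ND1, ND6 and CYTB. The search covered annotated transcripts only, not the whole nuclear genome.

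The members fell into separate ranges of level per base of gene. COX1, the catalytic core of cytochrome c oxidase (complex IV), had the highest level, with a median over the 14 mice of 41.2 CPM per base, where CPM is the count scaled to a total of 1000000 in each mouse. CYTB, the only mitochondrially encoded subunit of complex III, followed at 28.3 CPM per base, and ND1, which helps form the quinone site of complex I, at 23.1 CPM per base. The order of COX1 above CYTB held in 14 of 14 mice, and that of CYTB above ND1 in 13 of 14. ND2 stood at 9.38 and ND4 at 5.87 CPM per base, both membrane subunits of the proton-pumping arm of complex I. ND6, the only protein gene read from the light strand, was at 4.98 CPM per base and ND5, another pumping subunit, at 4.78. These neighbours were not separated, since ND6 was above ND5 in 8 of 14 mice. ND5 and ND6 overlap at their ends and lie on opposite strands, and the use of strand in counting is not given in the sources used here, so reads of the overlap cannot be told apart.

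COX2, which takes electrons from cytochrome c, had a median of 0.231 CPM per base, ATP6, the proton-channel subunit of ATP synthase, 0.162, and COX3, a core subunit of complex IV, 0.154. The lowest ratio of ND5 to COX2 in any mouse was 13.1, so no mouse brought the ranges together. The median ratio of COX1 to COX2, subunits of the same complex, was 175 per base, and that of COX1 to COX3 was 273. ATP6 and COX3 were not separated from each other, with ATP6 higher in 10 of 14 mice. The genes around them were lower still, with 0.0580 CPM per base for ATP8, 0.0555 for ND3 and 0.0481 for ND4L. The 6 low genes form an unbroken block from COX2 to ND4L in the order of the genome, and the level was higher again at ND4. For ATP8, which lies between COX2 and ATP6, 0 windows were found in an annotated transcript, and on chromosome 1 no annotated copy fills the gap between Gm28661 and Gm10925. COX2, COX3 and ATP6 have only 3, 1 and 3 windows of 100 bases found in no annotated nuclear transcript. Per such window their median levels were 52.7, 120.6 and 36.7 CPM, beside 63.6 for COX1. ND4 was at 16.1, ND2 at 10.7, ND4L at 4.765, ND3 at 3.22 and ATP8 at 0.113 CPM per such window. The order of the members and the gaps of COX2, COX3 and ATP6 thus depend on the scale. ND3, ND4L and ATP8 stayed below COX1 on both scales. The scale per window supposes reads of 100 bases that are counted only where they match 1 place. That was not known here, and the part of the copies in the low levels was not tested.

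**Figure D1:**
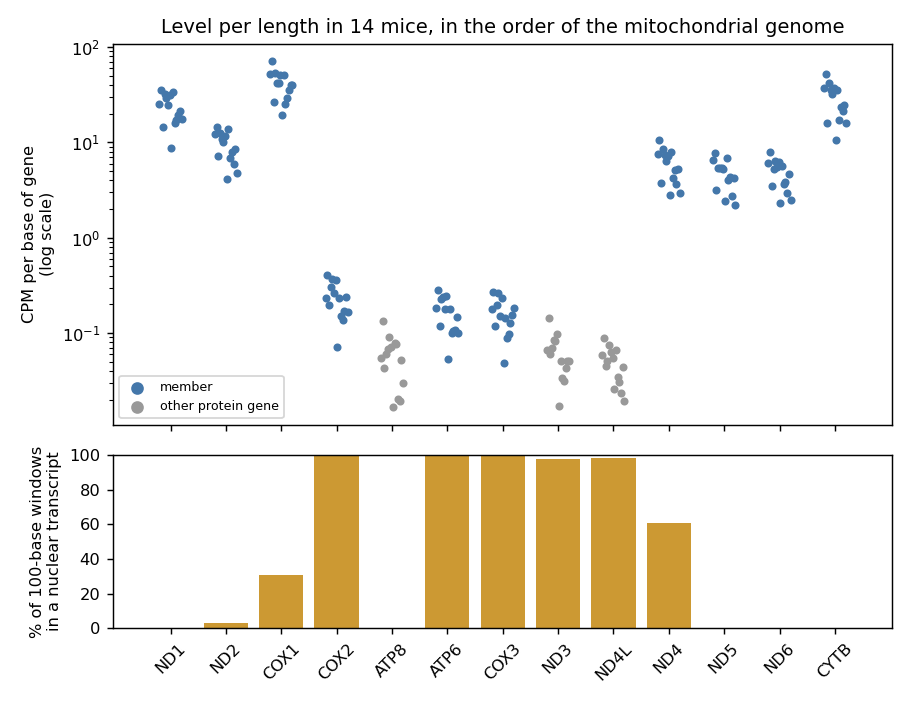
The upper panel plots the level per length (CPM per base, log scale) of the 13 protein genes in the order of the mitochondrial genome, with 1 point per mouse. The lower panel gives the percent of 100-base windows of each gene that also occur in an annotated nuclear transcript. COX2, ATP8, ATP6, COX3, ND3 and ND4L lie below 1 CPM per base in all 14 mice, and ND4, of which 60.8% is shared, lies above it.

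The count table also has rows for nuclear copies. The row LOC100503946, which RefSeq lists as Gm10925, held between 1.01 and 1.29 counts for each count of ATP6 in every mouse. In WT mice under normal conditions it held 4813, 7447 and 2268 counts, beside 4166, 6253 and 2057 counts for ATP6. The row Gm10222, the copy of ND4L, held between 1.24 and 2.10 counts for each count of ND4L. The row of the copy was thus above ATP6 in every mouse, by a ratio of at most 1.29. How reads that match more than 1 place were handled is not given in the sources used here, so the counts of COX2, COX3 and ATP6, and part of those of ND4 and COX1, are uncertain as levels of the mitochondrial messengers. Their ratios between groups carry the same uncertainty. Among the other rows of this genome, 21 of 22 transfer RNA rows had at most 1 count in each mouse, and TrnP had 1656 to 8193. Rows named Rnr1 and Rnr2 had 42 to 156 and 975 to 2444 counts, and the RefSeq table lists neither symbol.

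Summed over the 10 members, the mitochondrial messengers took between 6.45% and 25.1% of all counts of a mouse, a 3.89-fold range. WT mice under normal conditions gave 18.7%, 25.1% and 9.40%, a mean of 17.7% ± 7.90 (SD, n = 3). KO mice under normal conditions gave 19.9%, 16.8%, 15.8% and 18.6%, a mean of 17.8% ± 1.84 (SD, n = 4). WT mice after ischemia gave 6.45%, 19.2% and 9.65%, a mean of 11.8% ± 6.61 (SD, n = 3), with replicate 2 above every other ischemic mouse. KO mice after ischemia gave 11.3%, 11.6%, 13.8% and 11.1%, a mean of 11.9% ± 1.25 (SD, n = 4). The KO groups were tight, with coefficients of variation of 10.3% and 10.4%, against 44.6% and 56.2% in the WT groups. With 3 or 4 mice a group this difference in spread was not tested. Adding ND3, ND4L and ATP8 left every share within 0.02 percentage points of these values.

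Ischemia minus normal in the mean share was −5.83 percentage points in KO mice, with 67.2% of the normal level, and every ischemic KO mouse was below every normal KO mouse. In WT mice the difference was −5.97 points, with 66.3% of the normal level, but the mice overlapped widely. Between genotypes the means differed by much less than the spread, with KO minus WT at 0.0520 points under normal conditions and 0.193 points after ischemia, both with overlap. The WT means rest on single mice. Without replicate 2 of the ischemic WT mice the WT difference was −10.1 points, and without replicate 2 of the normal WT mice it was −2.27 points. The normal WT library with the smallest share, replicate 3, was read on lane 1 and the other 13 on lane 8, so an effect of the lane and of that mouse cannot be told apart. Total counts per mouse ran from 25612646 to 40255851, and the scarcest member, ATP6, had at least 1126 counts in each mouse, so spread between mice and not counting limits every value here.

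**Figure D2:**
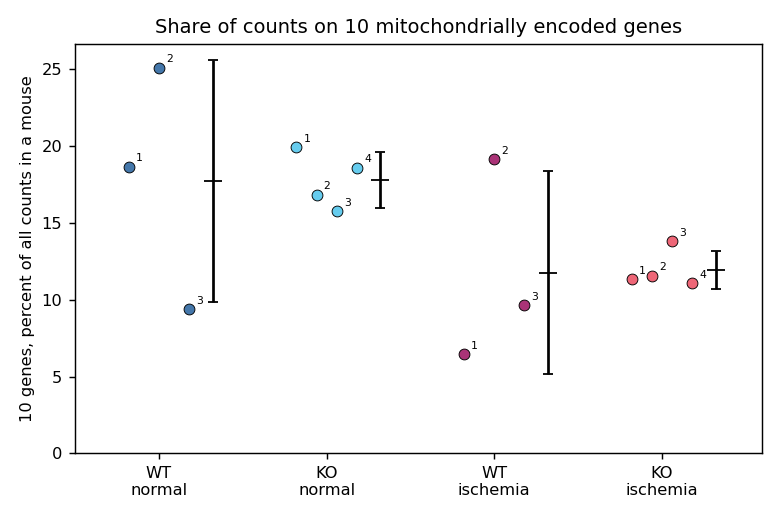
Percent of all counts that fell on the 10 genes, with 1 point per mouse, numbered by replicate, and the mean with its SD beside each group. The 4 ischemic KO mice lie between 11.1% and 13.8%, below the 4 normal KO mice at 15.8% to 19.9%, while the WT groups overlap.

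With all 17693 genes in an edgeR quasi-likelihood fit of the 4 groups, no member passed an FDR of 0.05 with a fold change over 1.5 after ischemia in WT mice (0.0113% of all genes did) or in KO mice (0.294% of all genes did). All 10 members had a negative log2 fold change in both genotypes. The median over the members was −0.66 in WT mice, with all genes at −0.01, and −0.73 in KO mice, with all genes at −0.05. An unadjusted p under 0.05 was reached by 2 of 10 members in WT mice, COX2 and COX3, where 5.47% of all genes did so in this direction. In KO mice it was reached by 2 of 10, COX2 and ATP6, against 7.47% of all genes. COX2, COX3 and ATP6 are the members with a copy of nearly their whole length. DESeq2 also called 0 of 10 in each genotype, where its share of all genes was not counted. An edgeR fit of the KO groups alone called ATP6 (FDR = 0.0477), against 1.67% of all genes. Over both genotypes, which reuse the same mice, 5 of 10 members, ATP6, COX2, COX3, ND6 and CYTB, had an unadjusted p under 0.05, against 9.72% of all genes in this direction. None of the 10 was called over both genotypes, against 0.927% of all genes, with edgeR FDR values from 0.137 for ATP6 to 0.445 for ND1. With DESeq2, COX2 and ATP6 were called over both genotypes, with FDR values of 0.0467 and 0.0432, against 5.20% of all genes. The members share one genome and its precursors, so their common sign is not 10 independent results.

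Within complex I, ND1 had log2 fold changes after ischemia of −0.39 ± 0.51 (SE) in WT mice and −0.61 ± 0.44 in KO mice. ND2 had −0.46 ± 0.47 and −0.72 ± 0.40, and ND4 had −0.59 ± 0.48 and −0.77 ± 0.42. Every one of these values lies within 2 SE of 0, and none was called. ND5, at −0.43 ± 0.46 and −0.66 ± 0.40, and ND6, at −0.62 ± 0.41 and −0.73 ± 0.36, were alike in sign and size. The value of ND6 in KO mice lay just beyond 2 SE of 0 (edgeR, unadjusted p = 0.0589, FDR = 0.399). ND5 was nearly constant in normal KO mice, at 9942, 9916, 9851 and 9590 CPM. After ischemia it was at 7853, 4968, 7754 and 3998 CPM in KO mice, so the groups did not overlap while their spread widened. WT mice covered both ranges, at 12064, 14031 and 5771 CPM under normal conditions and 4465, 12434 and 7285 CPM after ischemia.

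CYTB of complex III had 47691, 40164, 36826 and 42131 CPM in normal KO mice and 26640, 24218, 28006 and 18178 CPM in ischemic KO mice. Its log2 fold change was −0.76 ± 0.47 (SE) in KO mice (edgeR, FDR = 0.515) and −0.78 ± 0.54 in WT mice (edgeR, FDR = 0.600). No ischemic KO mouse reached the lowest normal KO mouse, yet the test did not call the gene. Over the alternative edgeR and DESeq2 fits, that of the KO groups alone among them, its lowest FDR in KO mice was 0.172. In WT mice CYTB ran from 18212 to 59385 CPM under normal conditions and from 12167 to 40072 CPM after ischemia, so the groups overlapped.

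COX1 of complex IV had 82632, 65107, 64700 and 78357 CPM in normal KO mice and 44949, 54610, 62529 and 61426 CPM in ischemic KO mice. This was the narrowest separation, a gap from 62529 to 64700 CPM, and the groups overlapped once the counts were scaled by TMM. Its log2 fold change was −0.36 ± 0.44 (SE) in KO mice and −0.69 ± 0.51 in WT mice. COX2 had 209, 251, 180.5 and 248 CPM in normal KO mice and 94.3, 118, 165 and 114 CPM in ischemic KO mice, and a log2 fold change of −0.84 ± 0.37 in KO mice (edgeR, unadjusted p = 0.0384, FDR = 0.343). In WT mice COX2 had 159, 277 and 136 CPM, and after ischemia 49.1, 158 and 104 CPM, which overlap, with a log2 fold change of −0.92 ± 0.42. COX3 was the only member whose normal and ischemic KO mice overlapped on the CPM scale, with ischemic KO replicate 4 at 144 CPM above normal KO replicate 3 at 119 CPM. Its log2 fold change was −0.56 ± 0.38 in KO mice and −1.04 ± 0.44 in WT mice (edgeR, unadjusted p = 0.0326, FDR = 0.514).

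ATP6 had 155, 163, 123 and 167 CPM in normal KO mice and 71.0, 73.5, 99.8 and 68.3 CPM in ischemic KO mice. All 4 ischemic values lay below the normal ones. The log2 fold change was −0.94 ± 0.37 (SE) in KO mice (edgeR, unadjusted p = 0.0237, FDR = 0.295) and −0.86 ± 0.43 in WT mice. Over both genotypes it was −0.90 ± 0.28, the largest among the members, with an unadjusted p of 0.00686 and an FDR of 0.137 in edgeR. WT mice gave 125, 192 and 80.3 CPM under normal conditions and 36.0, 120.5 and 67.7 CPM after ischemia, and they overlapped.

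**Figure D3:**
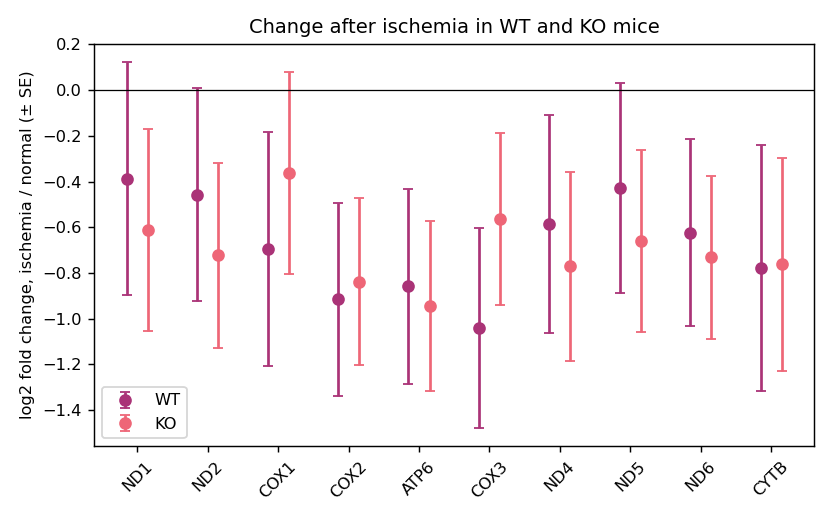
Log2 fold change of each member after ischemia, with its SE from the edgeR fit of all 4 groups, in WT and KO mice. All 20 values are negative, from −1.04 for COX3 in WT mice to −0.36 for COX1 in KO mice, and none was called.

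Counted by mouse, 9 of the 10 members had no overlap between normal and ischemic KO mice on the CPM scale, all lower after ischemia, against 5.56% of all genes. With TMM scaling the count was 8, against 5.60% of all genes, and COX1 and COX3 were the members that overlapped. Normal KO replicate 4 and ischemic KO replicates 3 and 4 had the largest sums of heart muscle markers, at 308.5 CPM or more. Without these 3 libraries, which leaves 3 mice against 2, the count was 10, against 17.9% of all genes. Ischemic WT replicate 1, which has no place in this comparison, had a heart marker sum of 58.8 CPM, while no other library was above 15.2 CPM. In WT mice 0 of 10 members were separated in this way, against 4.37% of all genes that were lower. These mice differed in other cell types as well, whose part in the result was not tested. The summed CPM of 8 smooth muscle markers was 10267 to 26242 in normal KO mice and 19750 to 32390 in ischemic KO mice. That of 8 brown adipocyte markers was 1387 to 6628 and 1183 to 5182, and that of 5 heart muscle markers 7.33 to 308.5 and 6.78 to 5503. That of 7 red cell genes was 328.5 to 655 in normal and 73.3 to 194 in ischemic KO mice. In WT mice the red cell sum was 111 to 256 CPM under normal conditions and 4.86 to 101 CPM after ischemia, so it did not overlap in either genotype. In WT mice the smooth muscle markers summed to 6467 to 26769 CPM and, after ischemia, to 19027 to 39719 CPM, and the brown adipocyte markers to 217.9 to 6876 and 375 to 1599 CPM. All 8 smooth muscle markers were above 3 counts in all 14 mice, as were all 8 endothelial ones, and all 8 brown adipocyte markers had at least 1 count in every mouse, in widely different amounts.

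Dnm1l, the gene altered in the KO mice, ran from 56.8 to 94.0 CPM in WT mice and from 56.1 to 63.6 CPM in KO mice under normal conditions. After ischemia it ran from 58.5 to 85.2 CPM in WT mice and from 61.3 to 77.3 CPM in KO mice. The genotypes overlapped on this scale, and with TMM scaling they were apart under normal conditions only, at 62.2 TMM-scaled CPM in the highest KO mouse and 63.8 in the lowest WT mouse. The study verified the knockout by fewer reads of exon 2, less Drp1 protein on western blots and weaker immunofluorescence in the artery. Counts of the whole gene measure none of these. Between KO and WT mice no member was called under normal conditions, where 0% of all genes were, or after ischemia, where again 0% were. No member had an unadjusted p under 0.05 in either, where 2.04% of all genes did so as lower and 3.21% as higher in KO mice under normal conditions, and 3.59% and 2.88% after ischemia. DESeq2 called 0 members in both. Its share of all genes was not counted there or for the interaction below. The log2 fold changes of KO against WT ranged over the members from −0.23 to 0.11 under normal conditions and from −0.46 to 0.53 after ischemia, with medians of −0.08 and −0.08. No member separated the genotypes by CPM under normal conditions, where 0.927% of all genes were lower and 3.33% higher in all KO mice, or after ischemia, where 4.02% were lower and 5.95% higher. The difference between the genotypes in their response to ischemia, tested as an interaction, ranged from −0.27 to 0.48 with a median of −0.10, and 0 members were called by edgeR (FDR of at least 0.956) or DESeq2, as 0% of all genes were by edgeR. None had an unadjusted p under 0.05, against 2.97% of all genes below 0 and 1.35% above. The wide spread of the WT mice limits these comparisons, and the median difference between genotypes changed sign when single WT mice were left out.

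The members varied more as a set than in their proportions. The CPM of a member had a coefficient of variation of 33.2% to 42.3% over the 14 mice, while its share of the set varied by 8.41% for ND1 to 24.7% for COX3. COX1 made up 43.6% ± 4.26 of the set (SD over 14 mice), CYTB 21.5% ± 2.28 and ND1 15.02% ± 1.26. ND2, ND5 and ND4 made up 6.57% ± 0.886, 5.85% ± 1.07 and 5.51% ± 0.704. ND6 made up 1.68% ± 0.248, and COX2, COX3 and ATP6 0.108% ± 0.0228, 0.0853% ± 0.0211 and 0.0729% ± 0.0119. A share is tied to the others, since they sum to the whole, so a rise of COX1 lowers the remaining members.

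ND1 and COX1 were the members whose share of the set separated the genotypes under normal conditions. ND1 took 12.9%, 13.4% and 14.8% of the set in WT mice and 15.5%, 16.5%, 14.97% and 16.02% in KO mice, with the groups just apart. COX1 took 43.6%, 43.6% and 44.0% in WT mice and 41.5%, 38.7%, 41.0% and 42.2% in KO mice. KO minus WT was 2.03 points for ND1 and −2.87 points for COX1. After ischemia the genotypes overlapped in the share of all 10 members, so neither difference was seen again. In WT mice ischemia minus normal was 0.921 points for ND5 and −0.0225 points for COX3, both without overlap. In KO mice it was −0.0205 points for ATP6, again without overlap. With 10 shares in each of 4 comparisons, these separations are given as descriptions and were not tested.

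The mouse that differed most in composition was replicate 4 of the ischemic KO mice. COX1 made up 55.4% of its set, the highest of all 14, while CYTB was at 16.4%, ND4 at 3.68%, ND5 at 3.61%, ND2 at 4.44% and ND6 at 1.16%, each the lowest. COX3 was at 0.130%, its highest share. Its total share of 11.1% was not set apart from the other ischemic KO mice. The library also had the largest sum of heart muscle markers, 5503 CPM, and Myh6, the heart muscle myosin, stood at 3606 CPM against at most 528 in any other mouse. The part of this tissue in the composition was not tested. Replicate 2 of the same group, with a heart marker sum of 6.78 CPM, had COX1 at 47.2% and ND5 at 4.30%.

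**Figure D4:**
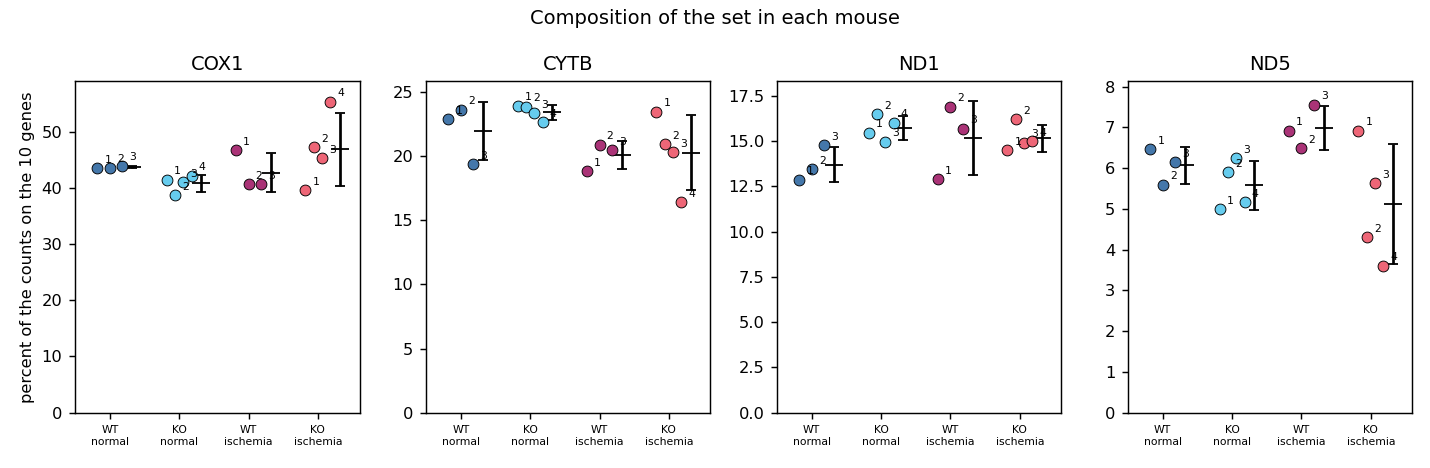
Share of COX1, CYTB, ND1 and ND5 in the counts of the 10 genes, with 1 point per mouse, numbered by replicate, and the mean with its SD beside each group. Axes start at 0. Ischemic KO replicate 4 has the highest COX1 share, 55.4%, and the lowest CYTB and ND5 shares, 16.4% and 3.61%.

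ND6 was examined as a single value because it is the only member read from the light strand. Its share of the set was 1.68%, 1.64% and 1.94% in normal WT mice and 1.37%, 1.95%, 1.82% and 1.76% in normal KO mice. After ischemia it was 1.86%, 1.54% and 1.96% in WT mice and 1.75%, 1.33%, 1.76% and 1.16% in KO mice. All comparisons overlapped. The two-sided exact permutation test gave p = 0.914 for KO against WT under normal conditions and p = 0.257 after ischemia. For ischemia against normal conditions the same exact test gave p = 0.9 in WT mice, where 0.1 is the smallest p possible, and p = 0.2 in KO mice. The other 3 tests could reach 0.0286.

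The nuclear-encoded partners of the members were centred below 0 after ischemia in WT mice and near 0 in KO mice. Of 80 tested genes for nuclear subunits of the respiratory complexes and of ATP synthase, edgeR called none in any comparison. At an unadjusted p under 0.05, 2 were lower after ischemia in WT mice, against 5.47% of all genes, and 1 was higher in KO mice, against 5.75%. After ischemia 76 of the 80 were lower in WT mice, with a median log2 fold change of −0.96, whereas in KO mice 27 were lower and 53 higher, with a median of 0.05. The members had negative values in both. Between KO and WT mice after ischemia 77 of the 80 were higher in KO mice, with a median of 0.83, beside −0.08 for the members. The value of the members rests on ischemic WT replicate 2, without which their median was 0.64 and that of the nuclear subunits 1.03. No nuclear subunit passed the test of the interaction, and 1 had an unadjusted p under 0.05, above 0, against 1.35% of all genes. Over both genotypes 75 of the 80 were lower after ischemia and 5 higher, with a median of −0.48. The 2 genes with the smallest p, both among these 5, were Atp5g1, for the rotor ring of ATP synthase, at 1.11 ± 0.38 (edgeR, unadjusted p = 0.0119, FDR = 0.170), and Atpif1, an inhibitor of that enzyme, at 0.37 ± 0.16 (edgeR, unadjusted p = 0.0374, FDR = 0.250). Atp5g1 had a median of 24.2 CPM in ischemic KO mice, and a single mouse was at 122 CPM. The list holds Cox7a1 and Cox8b, which are also among the brown adipocyte markers. All 8 of those markers were lower in WT mice after ischemia, with a median log2 fold change of −1.85, against 4 of 8 in KO mice. Heart muscle markers summed to 810 and 5503 CPM in ischemic KO replicates 3 and 4, and to 11.45 and 6.78 CPM in replicates 1 and 2. No value without these libraries was taken for the nuclear subunits or for the partner genes below. The part of either tissue in them was not tested.

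Of 32 tested genes that transcribe, process and copy the mitochondrial genome, 31 were lower after ischemia in WT mice, with a median log2 fold change of −0.68, and 16 were lower at an unadjusted p under 0.05, against 5.47% of all genes. In KO mice 23 were lower, with a median of −0.10, and 2 had such a p, against 7.47% of all genes. EdgeR called none. Fastkd3, an RNA-binding protein of the mitochondrial matrix, had a log2 fold change over both genotypes of −0.77 ± 0.19 (edgeR, FDR = 0.0749), and its relative Fastkd1 of −0.92 ± 0.24 (edgeR, FDR = 0.0958). Fastkd3 was at 5.08 ± 1.74 CPM in normal WT mice (SD, n = 3) and 2.26 ± 0.248 CPM in ischemic WT mice, and at 5.82 ± 0.713 and 4.45 ± 0.232 CPM in KO mice (SD, n = 4 each). Its log2 fold change after ischemia was −1.18 ± 0.29 in WT mice (edgeR, unadjusted p = 0.00115) and −0.37 ± 0.24 in KO mice (edgeR, unadjusted p = 0.149). The interaction for Fastkd3 was 0.80 ± 0.37 (edgeR, unadjusted p = 0.0507, FDR = 0.946). Of 35 assembly factors all 35 were lower in WT mice after ischemia, with a median of −0.66, and 23 in KO mice, with a median of −0.07. EdgeR called 0 of them, and at an unadjusted p under 0.05, 9 were lower in WT mice, against 5.47% of all genes, and 0 in KO mice, against 7.47%. In the interaction 1 assembly factor had such a p, above 0, against 1.35% of all genes. Among the assembly factors Oxa1l, which inserts mitochondrially made proteins into the inner membrane, was at −0.56 ± 0.18 over both genotypes (edgeR, FDR = 0.157) and Bcs1l, an assembly factor of complex III, at −0.73 ± 0.32 (edgeR, FDR = 0.255).

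Of 7 regulators of mitochondrial biogenesis edgeR called none, and over both genotypes 1 was lower and 2 were higher at an unadjusted p under 0.05, against 9.72% and 8.35% of all genes. Pprc1, a coactivator of the PGC-1 family, had a log2 fold change over both genotypes of 0.63 ± 0.18 (edgeR, FDR = 0.106). Ppargc1a, the coactivator PGC-1α, had 2.201 ± 0.75 (edgeR, FDR = 0.165), with 21.4 ± 12.5 CPM in normal and 201 ± 141 CPM in ischemic KO mice (SD, n = 4 each). In WT mice its log2 fold change was 1.18 ± 1.10 (edgeR, unadjusted p = 0.303), with a median of 17.9 CPM under normal conditions and 8.38 CPM after ischemia, and 1 ischemic WT mouse was at 82.4 CPM.

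Mouse by mouse, after group means were removed, the gene outside the mitochondrial genome most like the summed members was Sh2b3, an adaptor of cytokine signalling, with a Pearson r of 0.975 over 14 mice on the log2 CPM scale. Aox1, an aldehyde oxidase, followed at 0.943, then Unc45bos at 0.932, Usp2, a deubiquitinase, at 0.931 and LOC100503946, the copy of ATP6, at 0.930. The least alike were B230219D22Rik at −0.961, Crnkl1, a splicing factor, at −0.960 and Tmx4, a thioredoxin-like membrane protein, at −0.959. They were picked as the extremes of 17679 genes, and all values of a mouse share its library and its scaling, so no p is given. Within groups the SD of the members' share of counts was 7.90 and 6.61 in WT mice, against 1.84 and 1.25 in KO mice. These r values, and those that follow, thus rest mainly on the WT mice. The members themselves were between 0.871 for COX3 and 0.985 for ND1. The 80 nuclear subunit genes had a median r of 0.313, and 2 of them were above 0.5. The 8 smooth muscle markers had a median of −0.620, and 0 were above 0.5, with Myh11, the smooth muscle myosin, at −0.687. The brown adipocyte markers had a median of 0.366, with Ucp1 at 0.446. The highest median among the lists was that of the red cell genes, 0.645, with 5 of 6 above 0.5, followed by that of the endothelial markers, 0.411, with 3 of 8 above 0.5. The mouse with the largest share of members, normal WT replicate 2 at 25.1%, had the lowest smooth muscle sum and the highest brown adipocyte sum, and the mouse with the smallest share, ischemic WT replicate 1 at 6.45%, had the highest smooth muscle sum. Normal KO replicate 1, at 19.9%, and normal WT replicate 3, at 9.40%, had similar smooth muscle sums, 26242 and 26769 CPM. Normal WT replicate 1 had the lowest brown adipocyte sum, 217.9 CPM, and 18.7% of its counts on the members. The part of these cell types in the share was not tested.

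**Figure D5:**
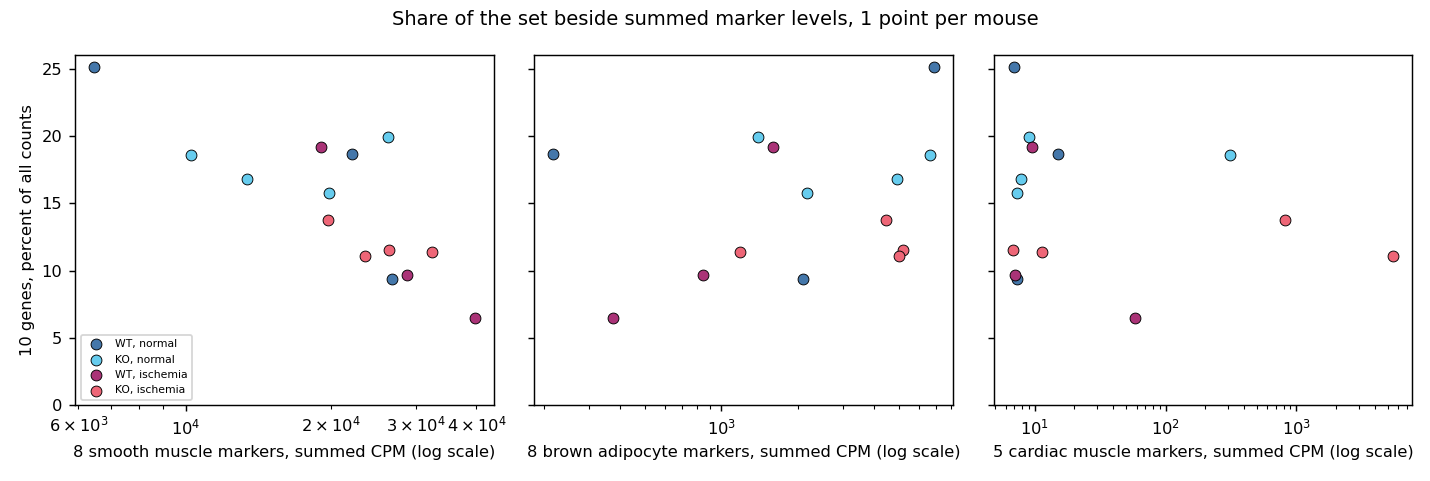
Percent of all counts on the 10 genes against the summed CPM of smooth muscle, brown adipocyte and heart muscle markers (log scales), with 1 point per mouse, coloured by group. Normal WT replicate 2, at 25.1%, has the lowest smooth muscle sum (6467 CPM) and ischemic WT replicate 1, at 6.45%, the highest (39719 CPM). Normal KO replicate 1, at 19.9%, and normal WT replicate 3, at 9.40%, have similar sums (26242 and 26769 CPM).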

How the data were processed

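RNA of the superior mesenteric artery of 14 mice was sequenced, with RIN over 8 by the labels. The authors deposited raw read counts per gene symbol, not normalized, as 1 table of whole numbers, and replicates were not pooled. The submitters' processing notes name HISAT2 2.0.4 and the build mm10. The counting program, the annotation, the use of strand and the handling of reads with several matches are not given in the sources used here. Groups and replicate numbers came from the sample labels, and 0 columns of single samples were left unused. That each label marks a separate mouse is stated by the study.

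A level of 3 counts, or 0.0745 to 0.117 CPM, was taken as the floor, and it covers counting error only. Counts were tested in R 4.3.3 with edgeR 4.0.16 (glmQLFit and glmQLFTest, TMM scaling, filterByExpr by group) in a fit of 4 groups, with Benjamini-Hochberg adjustment over 17693 genes. A gene was called at FDR < 0.05 with a fold change above 1.5, the limits of the study, and the RVM F-test of the study was not repeated. The biological coefficient of variation was 0.522. Fold changes were also computed with DESeq2 1.42.0. The steps were tested on simulated counts. The share of ND6 was compared by a two-sided exact permutation test.

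The members were proposed as a topic, and the gene lists chosen, with earlier results of these data known, although membership follows from the symbol alone. For this reason lists are described by counts and medians, without a test. Named were all members, the 5 genes most like and the 3 least like their sum, the 2 genes of each partner list with the smallest p over both genotypes, Dnm1l and markers. TrnP, the copies and the single marker genes were named after their values were seen. Skeletal muscle, adipocyte, leukocyte, neuron and gut markers were also summed, at 5.56 to 170, 1919 to 13087, 39.7 to 338.5, 11.2 to 57.6 and 0.289 to 48.4 CPM. Copies were searched as exact windows of 50 and of 100 bases in transcripts of GENCODE M21 (GRCm38). Shares are those of 100 bases unless stated. Coordinates of the genes are those of RefSeq on the same build. Same-numbered mice of different groups were different animals. After group means were removed, 19 pairs of same-numbered mice had correlations of −0.146 to 0.316, of which 11 were above 0.1. The 3 pairs of normal and ischemic WT mice were all above it, at 0.120 to 0.192, so that comparison was also fitted with the replicate number as a block. In the other comparisons not every pair was above 0.1.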

Additional observations from a re-analysis of the deposited data

Results flagged for a closer look

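In ischemic KO replicate 3, ATP6 stood apart from the other mice of its group, at 99.8 CPM against 68.3 to 73.5 CPM. The gap to the nearest mouse was 0.835 of the range of the group, just over the limit of 0.829 for 4 mice. Of 42 groups of values checked in this way 1 was set apart, and about 1 in 20 would be by chance. This mouse had the highest share of counts on the members among the 4, 13.8%, and a heart muscle marker sum of 810 CPM.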

How the results depend on the processing

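Alternatives to the test, the scaling, the filter, the fit and the mice left the direction of every member after ischemia as given, except ND1 in WT mice, whose log2 fold change ran from −1.14 without ischemic WT replicate 2 to 0.045 without normal WT replicate 2. With DESeq2, 2 members passed the limits over both genotypes, COX2 at −0.88 (FDR = 0.0467) and ATP6 at −0.90 (FDR = 0.0432), against 5.20% of 17247 genes. In an edgeR fit of the KO groups alone, 1 member was called after ischemia, ATP6 at −0.91 (FDR = 0.0477), against 1.67% of 15947 genes. Over the other alternatives 0 were called in any comparison. The cause of the differences in calls between fits was not tested. For the other alternatives, the replicate block and the fits without a mouse, the share of all genes called was not counted. In the main fit that share was 0% to 0.927%, so 0 of 10 does not set the members apart. Leaving out each mouse in turn gave 0 calls, and medians over the members of −1.23 to −0.25 for ischemia in WT mice, −0.84 to −0.61 in KO mice, −0.94 to −0.45 over both genotypes, −0.38 to 0.41 for KO against WT under normal conditions, −0.44 to 0.64 after ischemia and −0.50 to 0.56 for the interaction. The values of −1.23, 0.64 and 0.56 were reached without ischemic WT replicate 2. The difference in the share of total counts ran from −6.49 to −5.11 points for ischemia in KO mice and from −10.1 to −2.27 in WT mice, from −4.11 to 3.75 for KO against WT under normal conditions and from −2.46 to 3.90 after ischemia. The difference in the ND6 share ran from −0.106 to 0.0845 points for KO against WT under normal conditions and from −0.0545 to 0.155 for ischemia in WT mice. With the replicate block 0 members were called in each of 6 comparisons, and the median was −0.72 for ischemia in KO mice and 0.064 and 0.097 for KO against WT under normal conditions and after ischemia. In an edgeR fit of the WT groups alone with the replicate block, added after the data were seen, 0 members were called after ischemia, with a median of −0.69, so the block changed no call. The 3 libraries with the largest heart muscle sums were left out, and copies were set aside, as alternatives chosen after the data were seen, and over the 7 members without a copy of their whole length the median was −0.59 in WT and −0.72 in KO mice after ischemia. Members over nuclear counts, in place of all counts, differed by −8.08 points after ischemia in KO mice and by −8.52 in WT mice.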
